A study of Mus musculus with 8 samples.

Results

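The histone deacetylases examined here are 10 genes, Hdac1 to Hdac9 and Hdac11, out of 19938 genes measured in layers II-IV of the mouse neocortex at postnatal day 5. Each was taken by name from the probe sets that name a single gene, keeping for each gene the probe set with the highest mean over the 8 arrays. The family was put together with earlier results of these data known, and Hdac9 drew attention by its difference between the genotypes. The values that chose it are therefore described without a test of their own, and so are those of the other members in the same comparison. Whether a member passed a threshold set over all genes is stated, but nothing is read from it.

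The study used 4 control pups, Bcl6 flox/flox with 2 unaltered Nex alleles (Nex +/+), and 4 mutant pups, Bcl6 flox/flox with Cre placed in 1 Nex allele (Nex Cre/+). Both groups carry the floxed Bcl6 alleles. Nex is Neurod6, which cortical excitatory neurons express once they have left the cell cycle, so that Cre, which deletes the floxed part of Bcl6, is made in those neurons and not in interneurons, glia or vessels of the same tissue. Total RNA of each laser-microdissected sample was hybridised to 1 Affymetrix array. Per the design text the samples came from separate pups, and values are log2 expression as deposited. The series title places the work in the control of projection neuron death by Bcl11a and Bcl6.

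Histone deacetylases remove acetyl groups from lysines of histones and other proteins, which in general goes with more compact, less transcribed chromatin. Class I enzymes (Hdac1, Hdac2, Hdac3 and Hdac8) are mostly nuclear, and all but Hdac8 act inside large corepressor complexes. Class IIa enzymes (Hdac4, Hdac5, Hdac7 and Hdac9) have little catalytic activity of their own, bind MEF2 transcription factors through their N-terminal part, and leave the nucleus when calcium-dependent kinases phosphorylate them and 14-3-3 proteins hold them in the cytoplasm. In neurons this makes them a link between electrical activity and transcription. BCL6 is a zinc-finger repressor known to work with corepressors that carry histone deacetylases, among them class IIa members.

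Several facts of the arrays bear on all the values below. Bcl6 itself, the targeted gene, read 6.55, 6.58, 6.25 and 6.23 in the controls and 6.61, 6.76, 6.96 and 6.78 in the mutants. All 4 mutants thus lay above all 4 controls, by 0.37 ± 0.10 (SE) in the mean (adjusted p = 0.655 in limma). The single probe set of Bcl6 did not show the deletion, and the place of its probes relative to the floxed part is not stated. Neurod6, which lacks 1 intact allele in the mutants, read 9.17, 9.41, 9.15 and 9.15 in the controls and 8.84, 9.07, 8.69 and 8.73 in the mutants. All 4 mutants lay below all 4 controls, by -0.39 ± 0.09 (SE) in the mean, the direction that the labelled genotypes give (adjusted p = 0.535 in limma). The deletion of Bcl6 itself was not seen in these values, so the directions below are those of the libraries labelled mutant. Array medians lay between 4.94 and 5.01, and arrays correlated at 0.9904 to 0.9939 over all probe sets. Mutant replicates 1 and 4 had high Xist, the RNA of the inactive X chromosome, at 9.78 and 9.76, against 2.64 to 3.41 in the other 6 arrays. High Xist thus stood in mutants only, so the groups were not balanced for it, and the fit held no term for it. As markers of the labelled tissue, 9 of 10 listed genes of cortical excitatory neurons were measured, with a mean level of 8.88 to 9.11 in controls and 8.92 to 9.02 in mutants. Fewer cells of a type and less RNA per cell cannot be told apart in such samples.

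The sequences before the annotated start sites are shown for Hdac9 and for 1 class IIa relative, Hdac4. Some windows of Hdac7 lie nearer to those of Hdac9 in CG dinucleotides, as counted below. A link between these sequences and the expression values was not tested. The 250 bases upstream of the start are shown 5′ to 3′ on the gene's strand, from RefSeq on GRCm38.p6, with CG dinucleotides in capitals. Hdac9 has 2 entries, at chr12:34917096-34917345 and chr12:34528890-34529139, and Hdac4 has 1, at chr1:92180342-92180591, all on the minus strand.
Hdac9, start 1: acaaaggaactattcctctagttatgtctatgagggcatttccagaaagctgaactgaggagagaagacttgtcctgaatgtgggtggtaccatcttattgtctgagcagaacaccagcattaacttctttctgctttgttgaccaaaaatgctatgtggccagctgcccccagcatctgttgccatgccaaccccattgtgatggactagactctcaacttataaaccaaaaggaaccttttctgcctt
Hdac9, start 2: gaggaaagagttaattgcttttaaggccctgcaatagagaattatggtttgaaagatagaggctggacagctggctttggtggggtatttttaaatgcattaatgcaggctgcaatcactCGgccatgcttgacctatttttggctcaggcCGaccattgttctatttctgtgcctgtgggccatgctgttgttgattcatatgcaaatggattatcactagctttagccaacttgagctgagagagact
Hdac4: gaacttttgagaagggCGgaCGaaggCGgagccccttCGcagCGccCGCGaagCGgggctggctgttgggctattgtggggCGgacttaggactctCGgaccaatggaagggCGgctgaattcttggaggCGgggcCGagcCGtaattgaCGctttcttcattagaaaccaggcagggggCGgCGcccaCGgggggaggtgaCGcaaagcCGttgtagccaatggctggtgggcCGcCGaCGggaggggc

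The Hdac9 windows held 0 and 2 CG dinucleotides and the Hdac4 window 23. Of the 10 members, 8 had such a window, 12 windows in all, and each of the 10 windows of the other 7 genes held at least 5. Hdac2 held the most, 27, and Hdac7 held 25, 6, 21 and 5 at its 4 starts. The median over all 32851 windows was 6, and 7.87% of them held none, so few CG dinucleotides are not particular to Hdac9. The letters TTCCTAGAA, a core of the BCL6 binding motif, were looked for on both strands and stood in none of the 12 windows, against 0.347% of all windows. The MEF2 consensus stood in 1 of the 12, that of Hdac5, against 2.92% of all windows. Which of these starts is used in the samples was not measured, since the array summarises each gene in 1 value per probe set.

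Hdac9, a class IIa deacetylase that binds MEF2 and also has a short form without the catalytic domain, was the member whose mutant values all lay below its control values. Its log2 level was 8.08, 8.36, 8.19 and 8.22 in the controls (here and below in the order of replicates 1 to 4) and 7.87, 7.78, 7.82 and 7.92 in the mutants. A gap of 0.157 lay between the highest mutant and the lowest control. The group means were 8.21 ± 0.12 (SD, n = 4) and 7.85 ± 0.06, a difference of -0.36 ± 0.07 (SE) on the log2 scale, so that controls held 1.29-fold more. By the size of a lower value in mutants Hdac9 stood at place 46 of the 19938 genes, and 87 genes differed by at least as much in either direction. A single probe set summarises Hdac9, so the short and the long form cannot be told apart.

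None of the 10 members was among the genes past the threshold, an adjusted p of 0.05 in limma (a linear model fitted to every gene, with Benjamini-Hochberg adjustment over all genes), which called 0.0652% of all genes, or 13. Control and mutant values did not overlap in 1 of the 10 members (10 measured, none left out by a filter), while 2.75% of all genes had groups that did not overlap in either direction and 1.79% had mutants below controls. Since the choice of Hdac9 used this comparison, nothing is read from that count or from the threshold for the members.

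**Figure D1:**
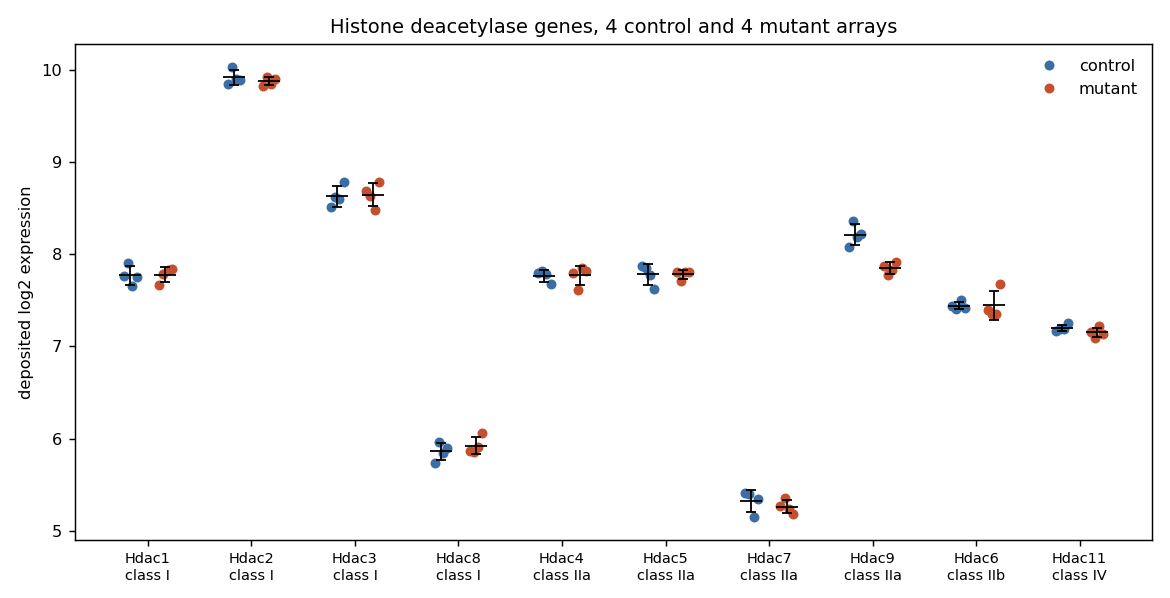
Deposited log2 expression (y axis) of the 10 histone deacetylase genes, grouped by class (x axis), with dots for the 4 control and 4 mutant arrays and black bars for the mean and SD. Control and mutant points overlap in 9 genes and are apart in Hdac9, at 8.08 to 8.36 against 7.78 to 7.92; levels of different genes come from different probes and are not comparable.

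The control and mutant values of the other class IIa members overlapped. Hdac4, a class IIa enzyme of neurons and of growth plate cartilage, read 7.79, 7.81, 7.78 and 7.67 in controls and 7.80, 7.62, 7.85 and 7.81 in mutants. Its lowest and its highest value both belonged to mutants, and the difference was 0.0046 ± 0.071 (SE). Hdac4 also had another probe set, with a mean of 7.36 ± 0.11 (SD, n = 4) in controls and 7.38 ± 0.11 in mutants and a difference of 0.021 ± 0.079 (SE), so its 2 probe sets gave like differences. Hdac5, an activity-regulated class IIa enzyme, read 7.87, 7.85, 7.77 and 7.63 in controls and 7.81, 7.70, 7.80 and 7.80 in mutants. Controls spread wider than mutants there, and the difference was 0.00028 ± 0.071 (SE). Hdac7, known best from endothelial cells and thymocytes, read 5.41, 5.40, 5.15 and 5.34 in controls and 5.27, 5.36, 5.23 and 5.19 in mutants. The groups overlapped, with a difference of -0.063 ± 0.075 (SE), at a level near the median of all genes, 5.56, where a signal near background could not be marked.

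Hdac9 was also set against the other class IIa genes within each array, each gene counted from its own control mean. The mean of Hdac4, Hdac5 and Hdac7 in mutants was -0.020 ± 0.033 (SD, n = 4). Relative to them Hdac9 stood at -0.34, -0.37, -0.39 and -0.27 in the mutants and at -0.20, 0.09, 0.03 and 0.08 in the controls. The lowest control, replicate 1, was closer to the highest mutant than to the other controls. The mutant mean of this relative value was -0.34 ± 0.05 (SD, n = 4), close to the Hdac9 difference itself.

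Among the class I enzymes no member had groups that stood apart. Hdac1 and Hdac2, the paired catalytic subunits of the Sin3, NuRD and CoREST complexes, differed by 0.010 ± 0.073 and -0.044 ± 0.065 (SE). Hdac1 read 7.76, 7.91, 7.65 and 7.76 in controls and 7.67, 7.78, 7.83 and 7.84 in mutants, with the mutants inside the range of the controls. Its other probe set differed by 0.068 ± 0.069 (SE), and because a processed copy of Hdac1 is annotated elsewhere in the genome as a pseudogene, Hdac1 values are uncertain where probes could read both. Hdac2 read 9.85, 10.03, 9.90 and 9.89 in controls and 9.83, 9.92, 9.85 and 9.90 in mutants, a narrow spread in both groups. Hdac3, the catalytic subunit of the NCoR corepressor complex to which BCL6 binds, read 8.51, 8.62, 8.60 and 8.79 in controls and 8.69, 8.63, 8.48 and 8.78 in mutants. Both groups covered nearly the same range, and the difference was 0.015 ± 0.082 (SE). Hdac8, an X-linked enzyme that deacetylates cohesin, read 5.74, 5.96, 5.85 and 5.90 in controls and 5.87, 5.85, 5.91 and 6.06 in mutants, a difference of 0.060 ± 0.073 (SE). Its highest value was in mutant replicate 4, one of the arrays with high Xist, while mutant replicate 1, the other, lay inside the control range.

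Class IIb and class IV each held 1 member. Hdac6, an X-linked cytoplasmic enzyme that deacetylates tubulin, read 7.44, 7.41, 7.50 and 7.42 in controls and 7.40, 7.35, 7.36 and 7.68 in mutants. Mutant replicate 4 stood above the other 7 arrays, and the other 3 mutants lay below all controls. The difference was 0.0040 ± 0.080 (SE), and without mutant replicate 4 it was -0.074. Hdac11, the class IV enzyme, which removes long fatty acyl groups from lysine, read 7.17, 7.19, 7.19 and 7.25 in controls and 7.15, 7.09, 7.22 and 7.14 in mutants. It differed by -0.048 ± 0.061 (SE), with 3 of the 4 mutants below the lowest control. Hdac10, a polyamine deacetylase of class IIb and not among the members, differed by 0.085 ± 0.076 (SE), from 6.95 ± 0.13 (SD, n = 4) to 7.04 ± 0.06.

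The 9 members other than Hdac9 thus differed by at most 0.063 in size. Their 95% intervals lay between -0.23 and 0.22 on the log2 scale, which bounds a difference the arrays could have missed and does not show that the genotypes were alike. The SE of the 10 members ran from 0.061 to 0.082, against a median of 0.079 over all genes, and that of Hdac9 was 0.073.

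**Figure D2:**
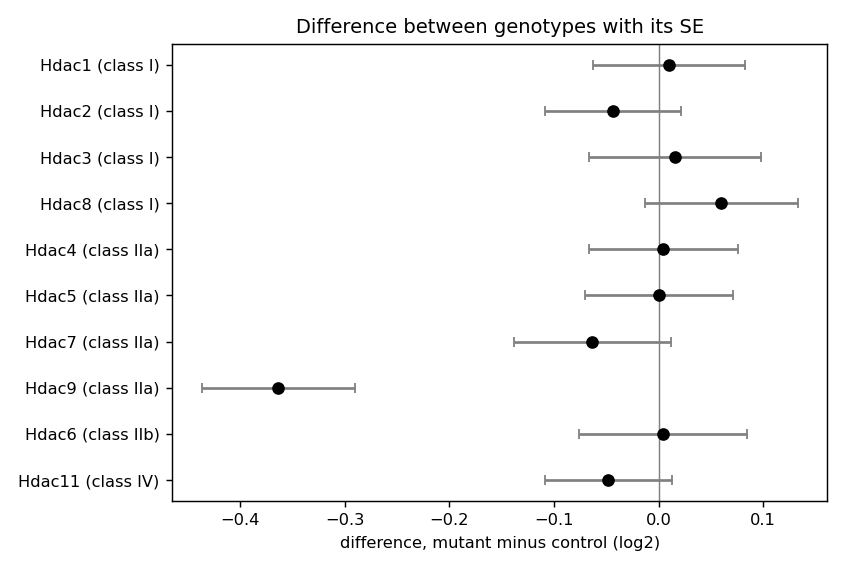
Mutant minus control log2 expression (x axis) for each of the 10 members (y axis, with class), each point a gene and each bar its SE from limma. Hdac9 lies at -0.36, and the other 9 lie between -0.063 and 0.060.

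Set class against class, the median difference was 0.013 over the 4 class I genes and -0.032 over the 4 class IIa genes, beside -0.0096 over all genes. In class I 3 members were positive and 1 negative, and in class IIa 2 were positive and 2 negative. The class IIa mean of -0.11 came from Hdac9, since without it the other 3 had a mean of -0.020 and a median of 0.00028. The per-array mean of class IIa, counted from the control mean of each gene, was -0.08, -0.16, -0.09 and -0.09 in the mutants and 0.02, 0.09, -0.05 and -0.06 in the controls. These groups stood apart only with Hdac9 counted in. The mean of Hdac4, Hdac5 and Hdac7 ran from -0.065 to 0.0064 in mutants, inside the -0.076 to 0.068 of controls. In class I the same values were -0.03, 0.0027, -0.03 and 0.10 in mutants and -0.08, 0.09, -0.05 and 0.04 in controls, with the groups overlapping. No test was made of the difference between the classes, because Hdac9 was chosen for it.

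The genes that histone deacetylases work with were described from 11 lists of complexes, binding partners, kinases, acetyltransferases and readers, chosen with earlier results of these data known. Of 120 listed genes 112 were measured, and limma called 0 higher and 0 lower; an unadjusted p under 0.05 was found for 0 of them and for 4.91% of all genes. Groups did not overlap in 3 of them, or 2.68%, near the 2.75% of all genes. The median difference was -0.0037, and list medians ran from -0.025 for the 14-3-3 proteins to 0.026 for 3 genes of the NCoR complex. Limma's smallest adjusted p over the 112 was 0.9995.

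In the corepressor complexes the differences were small and of mixed sign. Of 15 Sin3 genes, 5 were higher and 10 lower, with a median of -0.017, and Sap30l, a Sin3-associated protein, read 6.98 ± 0.06 (SD, n = 4) in controls and 7.08 ± 0.04 in mutants without overlap. Of 13 NuRD genes, 4 were higher and 9 lower, with a median of -0.014. Its Cdk2ap1, a small subunit of the complex, read 8.71 ± 0.08 in controls and 8.58 ± 0.04 in mutants, again without overlap, and Chd4, the remodelling ATPase, differed by -0.0031 ± 0.080 (SE). Of 10 CoREST genes, 6 were higher and 4 lower, and Rcor1, its scaffold, differed by -0.080 ± 0.080 (SE). Of the 3 measured genes of the NCoR complex, Tbl1xr1, a WD-repeat subunit, differed by -0.14 ± 0.09 (SE). In the MiDAC complex, a mitotic deacetylase complex, Mideas read 4.89 ± 0.03 (SD, n = 4) in controls and 5.02 ± 0.09 in mutants without overlap. None of these genes passed limma's threshold over all genes.

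Partners of the class IIa enzymes were examined in the same way. Mef2c, the MEF2 factor of cortical excitatory neurons, differed by -0.054 ± 0.061 (SE), Mef2a by -0.0045 ± 0.065 and Mef2d by -0.059 ± 0.086. The 11 measured partner factors had a median difference of 0.00044, with 6 higher and 5 lower, and Camta1, a calcium-responsive activator, was the one of smallest p, at 0.11 ± 0.07 (SE). Of 21 kinases and phosphatases that set the phosphorylation of class IIa enzymes, 7 were higher and 14 lower, with a median of -0.0066. Camk4, a nuclear calcium-dependent kinase, differed by -0.028 ± 0.076, and Sik1, Sik2 and Sik3, salt-inducible kinases, by 0.010 ± 0.102, -0.0031 ± 0.071 and -0.016 ± 0.079. The 7 genes of 14-3-3 proteins lay between -0.052 and 0.015.

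The opposing and parallel enzymes gave no call either. Of the 7 sirtuins, deacetylases that need NAD, 4 were higher and 3 lower, from -0.13 ± 0.08 (SE) for Sirt1 to 0.14 ± 0.07 for Sirt4. Of 12 acetyltransferases, which add the groups that deacetylases remove, 8 were higher and 4 lower, with a median of 0.018, and Ep300 and Crebbp, the main coactivators, differed by -0.022 ± 0.091 and 0.033 ± 0.099. The 11 readers of acetylated lysine lay between -0.060 and 0.069.

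**Figure D3:**
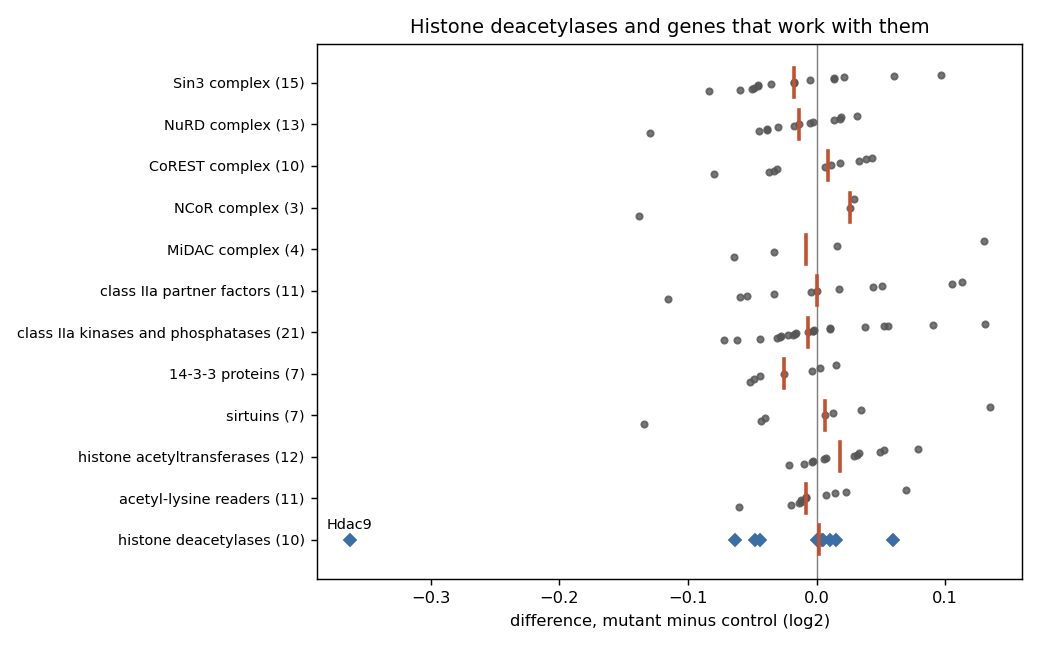
Mutant minus control log2 expression (x axis) for every measured gene of 11 lists and for the 10 histone deacetylases (y axis, number of genes in parentheses), each point a gene and each red tick a list's median. The 112 listed genes lie between -0.14 and 0.14, and Hdac9 lies at -0.36.

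The neighbours of Hdac9 on chromosome 12 were read to see whether the stretch moved as a whole. In the gene order of GRCm38.p6 the 3 measured genes on one side were Twistnb (-0.059 ± 0.076, SE), Ferd3l (-0.0062 ± 0.082) and Twist1 (-0.039 ± 0.076), and on the other side Prps1l1 (0.043 ± 0.128), Snx13 (-0.099 ± 0.077) and Mir680-3 (-0.080 ± 0.083). The control and mutant values of each overlapped, and limma's adjusted p was 0.9995 for all 6, which does not show that they were unchanged. Prps1l1 and Ferd3l read 2.83 and 4.44 in controls, below the array medians, where a change could go unseen. A shared change of the stretch was not tested. Twist1, a basic helix-loop-helix factor of mesenchyme, read 4.96 ± 0.14 (SD, n = 4) in controls and 4.92 ± 0.03 in mutants.

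The genes whose values over the 8 arrays were most like those of Hdac9 were named by Pearson's r, as a description across arrays that share the 2 genotypes and a single normalization. They were Fam122c (r = 0.962), Spice1 (r = 0.961) and Sbspon (r = 0.933), and 27 genes had an r of at least 0.9. After the group means were taken out, the most alike were Olfr171 (r = 0.988), Dstyk (r = 0.986) and Ptpra (r = 0.984), and the 2 sets of 3 shared no gene. Olfr171 is an olfactory receptor gene at a level of 1.92 in controls, near the floor of the table, where values carry little information. Fam122c, at 2.48 in controls, and Sbspon, at 3.68, also read below the array medians, so their likeness is uncertain too. After the group means were taken out, Hdac8 was the member most like Hdac9, with r = 0.868 against 0.018 over the 8 arrays, followed by Hdac2 with r = 0.693. Over the 8 arrays Hdac2 was the most like it, with r = 0.594, and the other class IIa genes had r = 0.099 (Hdac4), 0.036 (Hdac5) and 0.267 (Hdac7).

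Markers of other cells in the captured tissue were set beside the Hdac9 difference. Of 9 microglia markers 7 read lower in mutants, with a median difference of -0.11, and the mean level of the list was 4.65 to 4.86 in controls and 4.59 to 4.69 in mutants, ranges that overlap. P2ry12, a receptor of resting microglia, differed by -0.27 ± 0.10 (SE; limma adjusted p = 0.932), while Cx3cr1, a defining microglial receptor, differed by -0.053 ± 0.108. Of 9 layer IV markers 1 fell, Cdh8, a cadherin of cortical neurons, by 0.63 on the log2 scale (limma adjusted p = 0.022). The list median was -0.0084, with 4 higher and 5 lower. Rorb, the first listed, read 10.48, 10.50, 10.32 and 9.35 in controls and 10.39, 10.33, 10.50 and 9.81 in mutants. Replicate 4 was thus the lowest of each group. The same held for Fezf2, the first listed deep-layer gene, at 5.68 in control replicate 4 and 5.87 in mutant replicate 4. Whether the captured layers differed between arrays was not tested. Both red blood cell genes measured of 8 listed read lower, with a median of -0.15, at 4.88 to 5.00 in controls and 4.64 to 4.87 in mutants. The medians of the lists for excitatory neurons, deep-layer neurons, interneurons, astrocytes, the oligodendrocyte lineage, endothelium and dividing cells lay between -0.0037 and 0.032, and that of mural, fibroblast and meningeal cells at -0.049. The part of these cells in the Hdac9 difference was not tested.

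The Hdac9 difference was recomputed under 21 other settings. It lay between -0.41 and -0.31 in all of them, and in each it was the most negative of the members measured. The filters, priors, replicate block, other threshold and handling of probe sets leave this difference as it is, so only the other settings could move it. All settings use the values that chose Hdac9, so no support is drawn from their number. The value nearest 0, -0.31, came without control replicate 2, the highest control, and the value farthest from 0 came without mutant replicates 1 and 4. Within the mutants of low Xist alone, replicates 2 and 3, the levels of 7.78 and 7.82 were the lowest of the 8 arrays. No member passed the threshold over all genes under any of the 21 settings.

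**Figure D4:**
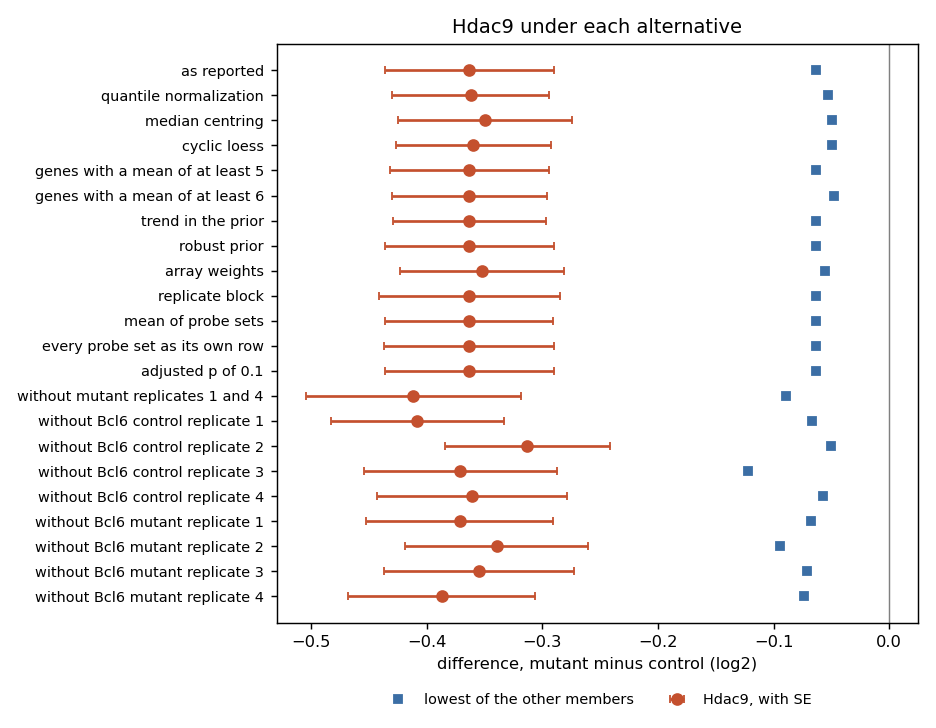
Mutant minus control log2 expression of Hdac9 (x axis) as reported and under 21 other settings (y axis), each red point with its SE, and the lowest of the other members as a blue square. Hdac9 stays between -0.41 and -0.31, and the lowest of the others between -0.12 and -0.05.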

How the data were processed

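Expression was deposited by the authors as log2 values of 35556 probe sets on 8 arrays. BRB-ArrayTools is named per the labels; the sources used here give no method of background correction or normalization. The log2 scale was read from the range of 0.74 to 13.63. Probe sets were named from the platform's annotation and updated to GRCm38.p6 symbols; only those naming 1 gene were used, and of several per gene the one with the highest mean, which left 19938 genes. The genotypes were compared by a fit of limma (version 3.58.1, R 4.3.3; lmFit and eBayes, two-sided, genotype alone, no filter) with Benjamini-Hochberg adjustment over all genes. The fit was tested on simulated data in which 200 genes were changed by 1 log2 unit. That step is larger than any difference of the members, so the simulation does not speak for differences of their size. The number of arrays limits the precision.

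Members, lists and rules were chosen with earlier results of these data known. The rule for naming covered all members, the genes of the engineered loci, and the 3 genes most like Hdac9 by each measure. It also covered the 3 measured neighbours of Hdac9 on each side. Of each list it took the genes past the threshold, those of smallest p and, for cell types, the first listed. Not all list genes given by the rule are named above, so those named are a selection. Genes singled out beyond the rule were chosen after their values were seen. Replicate numbers are not said to pair pups. Alternatives were other normalizations, filters, priors, weights, thresholds, handling of probe sets, the replicate number as a block, and arrays left out. A listed partner gene is not reported here.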

Additional observations from a re-analysis of the deposited data

Results flagged for a closer look

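In 24 groups of 4 arrays (10 members and 2 class means, in 2 genotypes) a sample far from the others was looked for by Dixon's ratio, which chance alone exceeds in about 1 in 20 groups. Hdac6 in mutant replicate 4 read 7.68, above the other 3 mutants. Hdac5 in mutant replicate 2 read 7.70, below the other 3 mutants. The class IIa mean of mutant replicate 2, counted from the control means, was -0.157, below the other 3 mutants.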

How the results depend on the processing

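The 10 differences of members and the medians of class I and class IIa moved by less than the spread between arrays under all 21 alternatives run for each (20 for Hdac7 and Hdac8, which a filter at a mean of 6 leaves out). That spread is an SD of single arrays within groups. Leaving out 1 of 4 arrays cannot move a member's difference by that much. Filters, priors, the block and the threshold leave a member's difference as it is. Stability of the members is therefore not read from this. The median of class I lay between -0.019 and 0.037 and so changed sign in some. That of class IIa lay between -0.063 and 0.00028. It was positive only with the filter at 6, which leaves out Hdac7, so that the median is then the unchanged difference of Hdac5. The number of genes past the threshold, 13, was between 3 and 13 with 1 array left out (13 without control replicate 2, 3 to 5 without any other), 5 with the replicate block and 2 without mutant replicates 1 and 4, and 9 to 16 under the other alternatives. No member and no partner gene passed under any of them. The replicate numbers were not taken as pairs: deviations of same-numbered arrays correlated at -0.012, 0.029, 0.040 and 0.16, and only replicate 4 correlated best with its own number. With the block the difference of Hdac9 stayed at -0.36, with an SE of 0.078. The median of all genes moved from -0.0096 to 0.0041 with median centring. Of the partner lists, the sirtuin median moved from 0.0062 to -0.040 with the filter at 6 and to -0.020 without control replicate 2. The filter drops Sirt4 and Sirt7 from the list and leaves the difference of each other sirtuin as it is, so that move is one of membership. The Sin3 median moved to -0.055 without mutant replicates 1 and 4. The causes of the other moves were not tested. The table holds no detection calls, which limits the values of Hdac7 and Hdac8.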
